A study of Mus musculus with 4 samples.

Results

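The miRNAs examined were the myosin-encoded mmu-miR-208b-3p and mmu-miR-499-5p and the muscle-enriched mmu-miR-486a-5p and mmu-miR-486b-5p, written without the species prefix from here on. Every entry that named 1 of these 4 miRNAs was taken from the peak lists of both eCLIP-seq libraries, whatever its value. Each entry is 1 miRNA within 1 Ago2 peak, with the chimeric reads that joined that miRNA to that place, and is called a peak of the miRNA in this text. Target genes were assigned by overlap with the gene spans of GRCm38 (mm10) on the strand of the peak. The 4 miRNAs had 1526 of the 194365 peaks of single miRNAs, 638 of 93468 in the control library and 888 of 100897 in the mimic library. Of the 4 names, 3 occurred. miR-486a-5p had 0 peaks in both libraries. How reads were given to the name miR-486a-5p or miR-486b-5p is not stated in the sources used here. The 0 therefore describes the use of the names and does not show that miR-486a-5p was absent.

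Both libraries were made from the plantaris of adult male C57BL/6J mice of 5 months, 10 days after bilateral synergist ablation, the surgery that gives mechanical overload (MOV). The control library came from muscle injected with a lentivirus carrying a control sequence, and the mimic library from muscle injected with a lentivirus carrying a miR-1a-3p mimic. Both groups therefore carried the overload and a lentivirus, and both vectors had a mouse CMV promoter, which also acts in cells other than muscle fibers, and TurboGFP as a reporter. By the study's design the left plantaris received the control virus and the right plantaris the mimic virus. There was 1 sample and 1 library in each group, so no test between them was possible and every difference describes these libraries. The 2 input libraries of the series were not analysed here.

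A miRNA guides Ago2 to a transcript by pairing between its seed, the bases near its 5′ end, and the target, and bound targets are usually repressed. miR-208b lies within Myh7, the gene of slow myosin heavy chain, and miR-499 within Myh7b. Both are co-expressed with their hosts and are known for promoting the slow fiber program. miR-486 lies within Ank1, which encodes an ankyrin of the membrane skeleton, is abundant in muscle and in red blood cell precursors, and is known for acting on FOXO1 signaling.

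The mature sequences of the myosin-encoded miRNAs are shown because the pair shares most of its seed, together with miR-208a-3p, the closest relative of miR-208b-3p. Sequences are from RefSeq (GRCm38.p6), 5′ to 3′, with the seed (bases 2 to 8) in capitals.
miR-208b-3p: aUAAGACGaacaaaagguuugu
miR-208a-3p: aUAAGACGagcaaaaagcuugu
miR-499-5p: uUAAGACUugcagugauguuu
miR-208b-3p and miR-208a-3p had identical seeds. Counted from the 5′ end, miR-208b-3p and miR-499-5p were identical from base 2 to base 7, and their first difference after base 2 was G8U. Over 21 compared positions they had the same base at 10, against 19 of 22 for miR-208b-3p and miR-208a-3p. miR-208b-3p is encoded on chr14:54975710-54975731 (minus strand) within Myh7 and miR-499-5p on chr2:155622893-155622913 (plus strand) within Myh7b. The miR-486 loci are Mir486, at chr8:23142555-23142682 on the plus strand, and Mir3107, at chr8:23142573-23142662, both within Ank1. miR-208a-3p had 0 peaks in both libraries.

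Depth was 232408 chimeric reads over 20754 Ago2 peaks for the control and 259207 over 21872 for the mimic. The values are estimated counts with fractions, with medians of 0.907 and 0.891 reads per peak of a miRNA. All 10 skeletal muscle markers had peaks in both libraries and together held 15.7% and 18.5% of the chimeric reads. Of 8 cardiac markers, 1 had any peak in control muscle and 2 in mimic muscle, with 8.92 and 7.71 reads in all.

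The 3 miRNAs that occurred differed widely in their number of chimeric reads. miR-486b-5p had 619 peaks with 713 reads in control muscle (Poisson 95% interval 662 to 767) and 850 peaks with 951 reads in mimic muscle (892 to 1013). miR-499-5p had 13 peaks with 7.12 reads in control muscle (2.81 to 14.4) and 27 peaks with 20.6 reads in mimic muscle (13.0 to 32.1). miR-208b-3p had 6 peaks with 5.02 reads in control muscle (1.62 to 11.7) and 11 peaks with 7.01 reads in mimic muscle (2.81 to 14.4). miR-486b-5p ranked 47th by reads among 560 named miRNAs in control muscle and 43rd in mimic muscle, and its reads were 0.307% and 0.367% of all chimeric reads. The methods describe amplification of cDNA with a miR-1 primer, and how far this shaped the present lists was not tested. These shares therefore describe the libraries and not the abundance of the miRNAs in muscle.

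**Figure D1:**
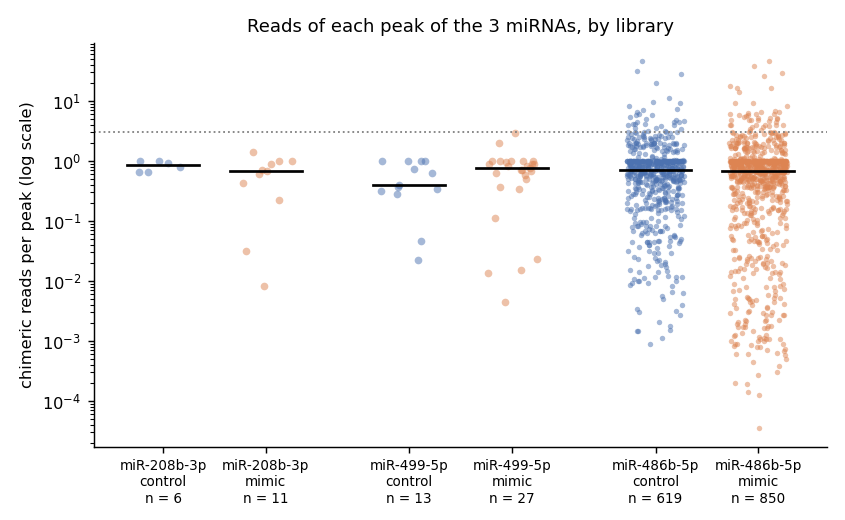
Chimeric reads of every peak of miR-208b-3p, miR-499-5p and miR-486b-5p in the libraries of control and mimic muscle, on a log axis. Each point is 1 peak, the bar is the median, and the dotted line marks 3 reads, which peaks of miR-486b-5p alone reached (36 in control muscle and 48 in mimic muscle).

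The peaks of the myosin-encoded miRNAs all held under 3 reads. The values of miR-208b-3p went from 0.647 to 1.0 reads in control muscle and from 0.00806 to 1.42 in mimic muscle. The values of miR-499-5p went from 0.0224 to 1.0 reads in control muscle and from 0.00448 to 2.94 in mimic muscle. For miR-486b-5p the median was 0.711 reads in control muscle and 0.667 in mimic muscle, with 67.4% and 69.1% of its peaks under 1 read, and its highest peak had 45.7 and 46.1 reads.

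The other strand of each hairpin had fewer reads for both miR-486b and miR-499. miR-486b-3p had 27 peaks with 19.7 reads in control muscle and 44 peaks with 28.5 reads in mimic muscle. miR-499-3p had 10 peaks with 4.16 reads and 13 peaks with 6.27 reads, and miR-208b-5p had 1 peak of 0.921 reads in control muscle and 0 in mimic muscle. The counting intervals of miR-499-5p and miR-499-3p overlapped in control muscle (2.81 to 14.4 against 1.09 to 10.2 reads). In the mimic miR-499-5p lay at the higher level (13.0 to 32.1 against 2.20 to 13.1 reads), with intervals that met only at their ends.

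All 3 miRNAs had more reads in the mimic library, as had the library as a whole. miR-486b-5p had 1.33 times as many reads in mimic muscle as in control muscle (95% interval 1.21 to 1.47, counting error only), and 1.2 times after division by the library totals. The ratio over all miRNAs was 1.12, and that of miR-1a-3p was 1.31 (1.29 to 1.33). Among 147 other miRNAs with no fewer than 50 peaks per library, the median ratio was 1.05, the 5th to 95th percentiles were 0.764 to 1.46, and 14 miRNAs had a higher ratio than miR-486b-5p. miR-499-5p had a ratio of 2.90 (1.23 to 8.35), on 7.12 and 20.6 reads, and 2.94 of the mimic reads lay in 1 peak at mt-Rnr2. The ratio of miR-208b-3p was 1.39, with an interval of 0.382 to 5.59 that held both a fall and a rise. The difference of miR-486b-5p was as large without the gene of its highest peak, with a ratio of 1.36 (1.22 to 1.5) when Tnnc2 was left out, and was 1.27 (1.14 to 1.41) without Ttn, Tnnc2 and Myom1.

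miR-486 is also made by red blood cell precursors, so the erythroid miR-451a was set beside it. miR-451a had 86 peaks with 84.7 reads in control muscle and 75 peaks with 69.8 reads in mimic muscle, a ratio of 0.825 (0.591 to 1.14). Its interval lay below that of miR-486b-5p. Of 8 erythroid marker genes, 3 had peaks of any miRNA in each library, and their summed reads were 23.1 in control muscle and 30.1 in mimic muscle. The markers Alas2, Slc4a1, Epb42 and Hbb-bt were among those at 0 in both libraries, and miR-486b-5p had no peak in any of the 8. The part of blood cells in the reads of miR-486b-5p was not tested. In bulk muscle, fewer cells of a type and less RNA per cell cannot be told apart.

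The peaks of miR-208b-3p lay in 16 genes, 6 in control muscle and 10 in mimic muscle, with no gene in common. In the control, Cfl2 (muscle cofilin, an actin-severing protein) had 1.0 read at chr12:54860752-54860933, and ND5 (a complex I subunit encoded by the mitochondrial genome) had 1.0 read. Klhl41 (a Kelch protein that stabilizes nebulin) had 0.931 reads, Ttn (titin, the spring of the sarcomere) 0.786, Mcl1 (an anti-apoptotic protein) 0.661, and Myom3 (an M-band protein) 0.647. Each of these genes was represented by a single peak. In the mimic, the nuclear RNA Neat1 had 1.42 reads at chr19:5834589-5834691, the highest value of this miRNA and the only peak in which it led the other miRNAs (24.8% of the reads of that peak). Qk (an RNA-binding protein that controls splicing in muscle) had 1.0 read, as had Rragd (a GTPase that signals amino acids to mTORC1). Prr14l had 0.893 reads, the transcription factor Ets1 0.714, the nuclear RNA Malat1 0.688, the deubiquitinase Usp15 0.600, and the cullin Cul4a 0.432. The Wnt coreceptor Lrp6 had 0.226 reads, and the 14-3-3 protein gene Ywhae had 0.0310 and 0.00806 reads in its pair of peaks.

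The peaks of miR-499-5p lay in 37 genes, 12 in control muscle and 25 in mimic muscle, again with no gene in common. The limit given for miR-208b-3p applies here too. In the control, Sdhb (a subunit of succinate dehydrogenase) had 1.0 read at chr4:140973664-140973765, and Sln (sarcolipin, an inhibitor of the sarcoplasmic calcium pump) had 1.0 read at chr9:53853426-53853589. Zfp280b had 1.0 read and Sec63 0.983. Ttn held abutting peaks at chr2:76713148-76713196 and chr2:76713197-76713232 with 0.730 and 0.286 reads, together 1.02. Among the other sarcomeric genes, Ldb3 (a Z-disc protein) had 0.400 reads and Myh2 (fast myosin heavy chain) 0.367. In the mimic, the mitochondrial ribosomal RNA gene mt-Rnr2 had 2.94 reads, within a peak of 139 miRNAs in which miR-499-5p ranked 59th. Txnl1 (a thioredoxin-like protein) had 2.0 reads, and Mybpc1 (slow myosin-binding protein C), Myh1 (fast myosin heavy chain), Hspa9 (a mitochondrial chaperone), Acvr2a (an activin and myostatin receptor) and Cse1l (a nuclear export factor) had 1.0 read each. miR-499-5p was the first miRNA by reads in 3 of its mimic peaks, at Lpl (0.871 reads), Kctd5 (0.806) and Nbeal1 (0.717), and in none of its control peaks.

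Within the mimic library miR-499-5p also had a peak in Myh7, the host gene of miR-208b. This peak, at chr14:54990307-54990349, had 0.759 reads, ranked 3rd of 7 miRNAs, and made up 19.5% of the reads of its Ago2 peak. All miRNAs together had 92.6 reads in Myh7 in control muscle and 80.7 in mimic muscle. Myh7b, the host of miR-499, had 0 peaks of any miRNA in both libraries. In Ank1, the host of miR-486, miR-486b-5p had 1 peak in mimic muscle at chr8:23149221-23149269 with 1.1 reads, the highest of the 4 miRNAs there, and 0 in control muscle. All miRNAs together had 45.2 and 72.1 reads in Ank1.

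None of the target sites of miR-208b-3p or miR-499-5p recurred between the libraries. Of the 6 control peaks of miR-208b-3p, 0 were overlapped by a peak of the same miRNA in mimic muscle (upper 95% limit 45.9%), and of the 13 of miR-499-5p also 0 (upper limit 24.7%). Counted from the mimic, 0 of 11 (28.5%) and 0 of 27 (12.8%) were overlapped. Over all miRNAs 35.5% of the control peaks were overlapped in mimic muscle and 32.7% of the mimic peaks in control muscle. The share was lower for peaks with few reads, 23.3% and 20.0% under 1 read, and the 283 other miRNAs with under 50 peaks in each library had 12.4% and 12.3%. Most of the same places were nevertheless bound by Ago2 in both libraries. When a peak of any miRNA was accepted, 5 of 6 control peaks of miR-208b-3p and 12 of 13 of miR-499-5p were overlapped, against 69.5% of all peaks. From the mimic the numbers were 7 of 11 and 20 of 27, against 67.2%.

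The myosin-encoded pair met at 3 places. At Mcl1 in control muscle, miR-208b-3p (0.661 reads) and miR-499-5p (0.317 reads) were listed in the same Ago2 peak, chr3:95662980-95663147. At Qk in mimic muscle, they were listed in the same peak, chr17:10210717-10210851, with 1.0 and 0.675 reads, and miR-486b-5p had 0.953 reads there. In ND5, the control peak of miR-208b-3p at chrM:13409-13546 (1.0 read) and the mimic peak of miR-499-5p at chrM:13418-13542 (0.966 reads) shared 125 nucleotides. Thus 3 of the 17 peaks of miR-208b-3p overlapped a peak of miR-499-5p, or 17.6% (Clopper-Pearson 95% interval 3.8% to 43.4%), against 0.616% of the peaks of all other miRNAs. These 3 places were crowded, with 18, 19 and 61 miRNAs in the Ago2 peaks of miR-208b-3p. The median was 3 over all Ago2 peaks, each counted once. Over all peaks of miR-208b-3p it was 18 in control muscle and 8 in mimic muscle. The part of crowding in the overlap was not tested.

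Seed matches could be looked for on the mitochondrial chromosome, where all 37 genes have the same span in the mm9 genome used for this search and in GRCm38. The motifs were the reverse complements of bases 2 to 8, cgtctta for miR-208b-3p and agtctta for miR-499-5p, and of bases 2 to 7, gtctta for both, which is contained in the longer motifs. The peak of miR-208b-3p in ND5 and the peaks of miR-499-5p in ND5 and mt-Rnr2 held 0 matches on their own strand, the plus strand. This was also so with 50 nucleotides added on each side. The whole plus strand of this chromosome holds cgtctta 0 times, agtctta 1 time and gtctta 3 times. The search for cgtctta could therefore not give a match, and the other motifs could be met at few places, so no conclusion is drawn from it. Of all Ago2 peaks on this chromosome, 0 of 38 in control muscle and 0 of 37 in mimic muscle held any of the motifs. Nuclear targets were not searched for seed matches.

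None of the 12 genes named in the field as targets of miR-208 or miR-499 had a peak of miR-208b-3p or miR-499-5p. These genes held 0.269% of all control peaks and 0.263% of all mimic peaks of single miRNAs. In each library 11 of the 12 had a peak of some miRNA, with sums of 318 control and 386 mimic reads. Sox6, a repressor of slow fiber genes, had 22.7 and 41.4 reads of all miRNAs, with miR-1a-3p the first in both libraries. Purb and Sp3, further repressors of that program, had 30.6 and 28.1 reads and 18 and 20.8 reads. Med13 (a Mediator subunit) had 21.5 and 23.0 reads and Pdcd4 (a translation inhibitor) 43.8 and 28.7 reads. The calcineurin genes Ppp3ca, Ppp3cb and Ppp3r1 had between 16.7 and 65.7 reads, Fnip1 (a regulator of AMPK) 70.4 and 87.6 reads, and Dnm1l (the mitochondrial fission GTPase) 19.2 and 18.4 reads. Cbx1 had 3.34 reads in control muscle and 0 in mimic muscle, and Mstn (myostatin) 0 in control muscle and 16.0 in mimic muscle.

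Of the 11 genes named in the field as targets of miR-486, miR-486b-5p had peaks in 1, Foxo1, the transcription factor that drives atrophy genes. The list held 0.395% of its reads in control muscle (0.0869% to 1.22%) and 0.0489% in mimic muscle (0% to 0.387%). Over all miRNAs the shares were 0.125% and 0.111%, which both intervals held. The values of miR-486b-5p rested on 2.82 and 0.465 reads. In the control Foxo1 had a peak of 2.54 reads at chr3:52347555-52347632, in which miR-486b-5p was the first of 4 miRNAs with 49.6% of the reads, and another of 0.281 reads. In the mimic Foxo1 had 1 peak of 0.465 reads at another place, chr3:52346296-52346334. The control and mimic values thus came from sites that did not overlap. Foxo3 had 16.3 and 22.2 reads of all miRNAs, Pik3r1 (a PI3K subunit) 38.8 and 36.4, Igf1 107 and 77.3, Igf1r 15.0 and 16.7, Smad2 12.3 and 4.40, and Arid4b 11.1 and 12.4, all without miR-486b-5p. Pax7, which marks satellite cells, and Dock3 had 0 peaks of any miRNA in both libraries.

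miR-486b-5p had peaks in 404 genes in control muscle and 489 in mimic muscle, of which 163 were shared, 40.3% of the control genes and 33.3% of the mimic genes. The medians over the 147 other miRNAs with 50 or more peaks per library were 28.6% and 27.0%, and 34 and 44 of them had a higher share. The 10 genes with the most reads in each library held 37.9% of its reads in either library. Genes with at least 3 of its reads numbered 33 in control muscle and 54 in mimic muscle.

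**Figure D2:**
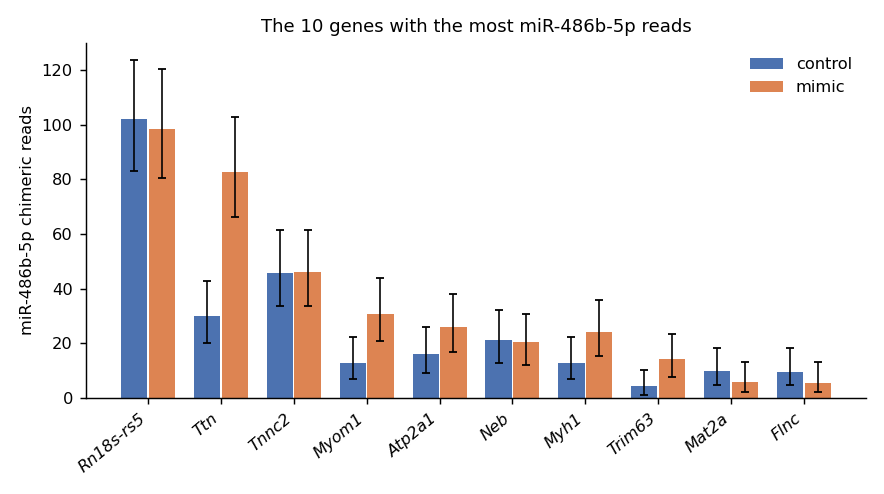
Chimeric reads of miR-486b-5p in the 10 genes with the most of its reads over both libraries, in control and mimic muscle. Bars start at 0 and error bars are Poisson 95% intervals, which cover counting error only. Ttn stands out, with 29.9 reads in control muscle and 82.6 in mimic muscle and intervals that do not overlap.

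Tnnc2, the gene of fast skeletal troponin C, the calcium sensor of the thin filament, held the highest peak of miR-486b-5p in both libraries. At chr2:164777493-164777589 it had 45.7 reads in control muscle, and the matching mimic peak at chr2:164777498-164777590 had 46.1 reads. The ratio was 1.01 (0.650 to 1.54). miR-486b-5p made up 24.2% of the 189 reads of that Ago2 peak in control muscle, where it was the 2nd of 34 miRNAs, and 28.6% of 161 reads in mimic muscle, where it was the 1st of 35. Almost all its reads in the gene came from this place, 99.7% and 99.8%. Over all of Tnnc2 it held 15.3% and 21.2% of the reads of all miRNAs, while the reads of the other miRNAs were 253 and 172, a ratio of 0.680 (0.557 to 0.828).

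Ttn, the gene of titin, had 30 peaks of miR-486b-5p with 29.9 reads in control muscle and 43 peaks with 82.6 reads in mimic muscle, a ratio of 2.76 (1.80 to 4.35). The other miRNAs in Ttn had a ratio of 1.34 (1.32 to 1.37), so the interval of miR-486b-5p lay above theirs. The leading peak, at chr2:76799239-76799273 in control muscle and chr2:76799220-76799278 in mimic muscle, had 7.32 and 17.8 reads, and miR-486b-5p led the 14 and 16 miRNAs there with 49.8% and 52.9% of the reads. The other miRNAs in that peak had 7.38 and 15.8 reads, a ratio of 2.15. A peak of 16.5 reads at chr2:76737527-76737581 was seen in mimic muscle, where miR-486b-5p led 15 miRNAs, and no control peak of miR-486b-5p overlapped it. Both libraries had 23 Ttn peaks of miR-486b-5p under 1 read. The peaks lay mostly beyond 150 kb from the start of this gene of 279 kb, 29 of 30 in control muscle and 35 of 43 in mimic muscle. This was 96.7% and 81.4%, against 74.5% and 74.6% of the Ttn peaks of all miRNAs.

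**Figure D3:**
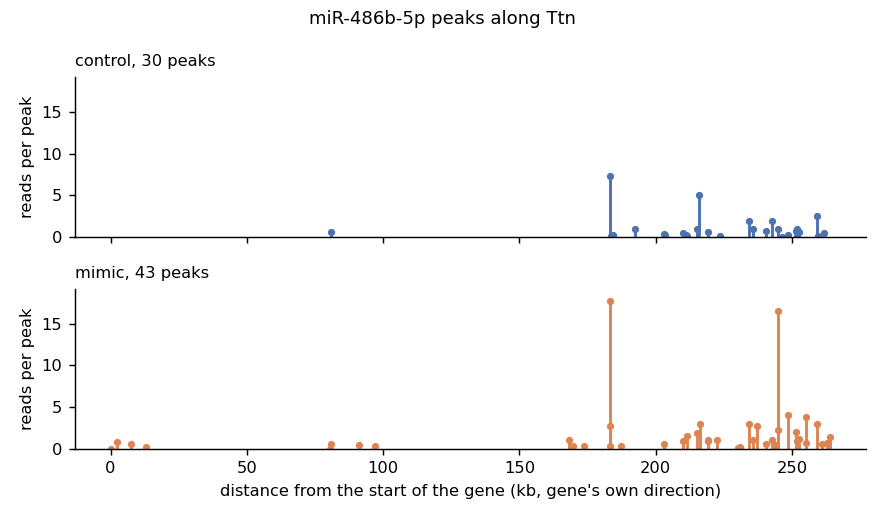
Peaks of miR-486b-5p along Ttn in control (top) and mimic (bottom) muscle, by distance from the start of the gene in kb and number of chimeric reads. Each line with its point is 1 peak. The peak near 183 kb is the highest in both libraries, with 7.32 and 17.8 reads, and the peak of 16.5 reads near 245 kb had no counterpart in control muscle.

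Myom1, the gene of myomesin, which links thick filaments at the M-band, had 12.7 reads in control muscle and 30.9 in mimic muscle in 4 peaks each, a ratio of 2.43 (1.21 to 4.97). The other miRNAs in Myom1 had a ratio of 1.11 (0.921 to 1.34), whose interval overlaps. Its main peak had 11 reads at chr17:71084297-71084425 in control muscle and 25.6 at chr17:71084284-71084403 in mimic muscle. miR-486b-5p led both, with 53.8% of the reads over 7 miRNAs and 66.9% over 11. Trim63, the gene of the ubiquitin ligase MuRF1, which degrades myofibrillar proteins in atrophy, had 4.50 reads in control muscle and 14.3 in mimic muscle, a ratio of 3.18 (1.1 to 14.6). The rise lay in 1 place, with 4.17 reads at chr4:134329321-134329411 in control muscle and 14.3 reads at chr4:134329300-134329418 in mimic muscle. There miR-486b-5p went from 2nd of 4 miRNAs with 20.2% of the reads to 1st of 7 with 49.5%, while the other miRNAs had 16.5 and 14.6 reads.

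Other fast fiber and thin filament genes had many reads of miR-486b-5p at places that several miRNAs shared. Atp2a1, the fast calcium pump SERCA1, had 16.1 reads in control muscle and 26.1 in mimic muscle, a ratio of 1.63 (0.839 to 3.24). Its peaks at chr7:126462841-126462879 (8.10 and 16.5 reads) and chr7:126448726-126448793 (6.98 and 8.28 reads) were led by miR-133a-3p in both libraries. Neb (nebulin, the thin filament ruler) had 21.3 and 20.4 reads, a ratio of 0.958 (0.490 to 1.85). Myh1 had 12.7 and 24.3 reads in 19 and 43 peaks, a ratio of 1.91 (0.903 to 3.95), close to the 1.78 of the other miRNAs in that gene. Myh2 had 4.52 and 6.38 reads in 6 and 25 peaks, and Myh4 had 8.02 and 4.91 reads in 15 and 16 peaks. Flnc (filamin C, at the Z-disc) had 9.60 and 5.71 reads, and Mat2a (an S-adenosylmethionine synthetase) 10.0 and 6.0 reads. The intervals of the ratios of Atp2a1, Neb, Myh1, Flnc and Mat2a all held 1.

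The gene of 18S ribosomal RNA, Rn18s-rs5 (chr17:39846354-39848202), had the most reads of miR-486b-5p, 102 in control muscle and 98.5 in mimic muscle. This was 14.3% of its reads in control muscle (95% interval 11.8% to 17.1%) and 10.4% in mimic muscle (8.54% to 12.5%), against 6.71% and 6.41% of the reads of all miRNAs. Each place there held many miRNAs, and miR-486b-5p ranked between 20th and 46th at its 10 control peaks, with at most 1.09% of the reads of any of them. The mitochondrial chromosome showed the opposite, with 2.49% of the reads of miR-486b-5p in control muscle and 1.64% in mimic muscle, against 13.7% and 13.4% of the reads of all miRNAs.

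The share of the reads of miR-486b-5p in each gene group was set beside that of all miRNAs. The lists were chosen from general knowledge with earlier results of these data known and support nothing on their own. Fast fiber genes held 14.4% of its reads in control muscle (11.9% to 17.2%) and 13.5% in mimic muscle (11.4% to 15.8%), against 8.58% and 9.89% over all miRNAs, and 13 and then all 14 of the listed genes had a peak of it. Sarcomere backbone genes held 11% (8.74% to 13.5%) and 17.2% (14.8% to 19.7%), against 11.9% and 13.6%, with peaks in 10 and 15 of 16 genes. Slow fiber genes held 0.857% and 0.463%, against 0.649% and 0.714%, with peaks in 4 and 3 of 12 genes. Together these contractile genes held 26.3% (23.0% to 29.6%) of its reads in control muscle and 31.1% (28.2% to 34.2%) in mimic muscle, above the 21.1% and 24.2% of all miRNAs. Without the mitochondrial chromosome and Rn18s-rs5 the shares were 31.6% and 35.3%, against 26.5% and 30.2%. Of the 103 control reads in fast fiber genes, Tnnc2 alone had 45.8. When Tnnc2 was left out, fast fiber genes held 8.54% and 9.05% of the reads of miR-486b-5p, against 8.46% and 9.81% over all miRNAs. The contractile genes together then held 21.2% and 27.6%, against 21% and 24.1%. By peaks, of which Tnnc2 had 2 in each library, fast fiber genes held 11.6% and 14.8% of those of miR-486b-5p. Over all miRNAs they held 5.14% and 5.66% of the peaks. By reads the 10 skeletal muscle markers went the other way. They held 10.9% of the reads of miR-486b-5p in control muscle (8.74% to 13.5%), against 15.7% over all miRNAs. In mimic muscle they held 16.2% (13.9% to 18.7%), against 18.5%, which lay within the interval. They held 13.7% and 15.2% of its peaks, however, against 7.53% and 8.56% of the peaks of all miRNAs. The direction thus depended on which genes were counted and on whether reads or peaks were counted.

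The listed matrix genes held few reads of miR-486b-5p. The 15 listed genes, among them the fibrillar collagens and fibronectin, held 2.0 of its reads in control muscle and 2.89 in mimic muscle, or 0.280% (0.0340% to 1.01%) and 0.304% (0.0651% to 0.919%), against 3.91% and 3.24% of the reads of all miRNAs. Its peaks there were in 4 and 5 of the genes. Col11a1, a fibrillar collagen outside the list and named after its values were seen, had a peak of 3.34 reads in mimic muscle in which miR-486b-5p made up 90.4% of the place. Fibroblast markers held 0.162% and 0.199% of its reads, against 1.82% and 1.62% over all miRNAs. Endothelial and macrophage markers had 0 of its peaks, but their reads of all miRNAs were also few, 21.3 and 49.4 for the 5 endothelial and 52.6 and 74.4 for the 5 macrophage genes. Glycolysis and energy buffer genes held 2.04% and 1.77% of its reads, against 2.52% and 2.42%.

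**Figure D4:**
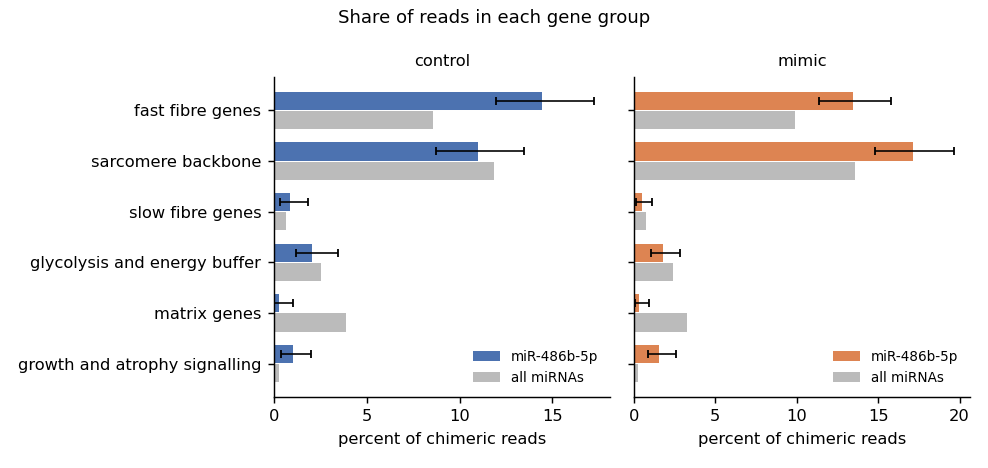
Percent of the chimeric reads of miR-486b-5p and of all miRNAs that lay in each gene group, for control (left) and mimic (right) muscle. Error bars are Clopper-Pearson 95% intervals for miR-486b-5p, covering counting error only. Its share in matrix genes was 0.280% and 0.304%, against 3.91% and 3.24% over all miRNAs.

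Genes of growth and atrophy signaling held 7.31 reads of miR-486b-5p in control muscle and 14.8 in mimic muscle. This was 1.03% (0.396% to 2.01%) and 1.55% (0.885% to 2.59%) of its reads, against 0.290% and 0.269% over all miRNAs. By peaks the shares of miR-486b-5p were 0.646% and 0.353%, against 0.476% and 0.452% over all miRNAs, so the mimic share lay on the other side. Of the 27 genes, 2 had its peaks in control muscle, Trim63 and Foxo1, and 3 in mimic muscle, these and Gsk3b. Trim63 accounted for 14.3 of the 14.8 reads in mimic muscle, and Gsk3b had 0.00174. Akt1, Rptor, Irs1, Smad3, Smad4 and Fbxo32, the other atrophy ubiquitin ligase, had reads of other miRNAs in both libraries but 0 peaks of miR-486b-5p.

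The sites of miR-486b-5p recurred between the libraries more often the more reads they held. Of its 619 control peaks, 195 were overlapped by a peak of the same miRNA in mimic muscle, or 31.5% (27.9% to 35.3%), beside 35.5% over all miRNAs. Of its 850 mimic peaks, 200 were overlapped in control muscle, or 23.5% (20.7% to 26.5%), beside 32.7%. Among 147 other miRNAs with no fewer than 50 peaks per library, the median share of control peaks overlapped was 24.5%, and 45 had a higher share than miR-486b-5p. Its control peaks under 1 read were overlapped in 24.5% of cases, those of 3 to under 10 reads in 28 of 31 cases, and those of 10 or more reads in 5 of 5. Over all miRNAs the share was 23.3%, 80.4% and 97.1% in the same classes.

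Pairing peaks that were each other's largest overlap gave 185 shared peaks of miR-486b-5p. Of these 63 had at least 1 read in both libraries, of which 15 were at least 2-fold higher in mimic muscle, or 23.8% (14.0% to 36.2%), beside 15.6% of the shared peaks of all miRNAs with the same minimum. A further 6 were at least 2-fold lower, or 9.52% (3.58% to 19.6%), beside 12.9%. Both intervals held the share over all miRNAs. The median log2 ratio of the 63 peaks was 0.08 (-0.04 to 0.40), against 0.02 for the other miRNAs and 0.16 for the total of all chimeric reads. Of 23 shared peaks that held at least 3 reads on both sides, 16 were higher in mimic muscle, or 69.6%. Of the shared peaks of the other miRNAs with the same minimum, 57.5% were higher. Several of the 16 lay in Rn18s-rs5, where miR-486b-5p had 102 control and 98.5 mimic reads over the whole gene. At chr17:39846866-39846936 there, the mimic peak of 38.1 reads overlapped control peaks with 51.9 reads in all. The pairing set only 32.0 of these control reads against it. The 16 peaks are therefore not separate genes. The median log2 ratio of the 23 peaks was 0.25 (-0.02 to 0.52), against 0.12 for the other miRNAs.

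**Figure D5:**
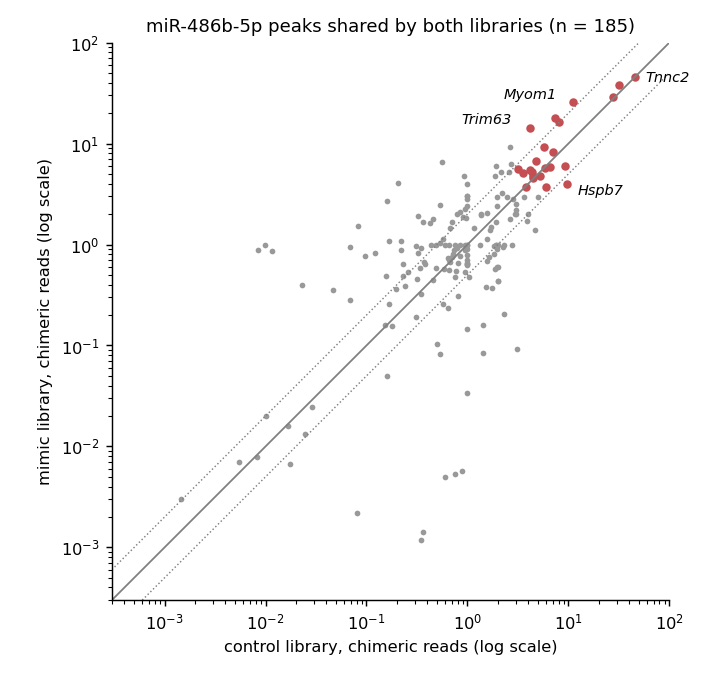
Chimeric reads of the 185 shared peaks of miR-486b-5p in control (x axis) and mimic (y axis) muscle, both on log scales. Red points are the 23 peaks of at least 3 reads on both sides, the solid line marks equal reads and the dotted lines a 2-fold difference. Tnnc2 lies on the line of equal reads (45.7 and 46.1), while Trim63 (4.17 and 14.3) and Myom1 (11 and 25.6) lie above the upper dotted line.

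Among these 23 peaks, the largest rises were at Trim63 with a ratio of 3.43 (1.1 to 14.6), Ttn with 2.43 (1.02 to 7.28) and Myom1 with 2.33 (1.13 to 5.30). Their intervals excluded 1 but not the ratio of all chimeric reads in the case of Trim63 and Ttn. The other miRNAs in the same Ago2 peaks had ratios of 0.882 at Trim63, 2.15 at Ttn and 1.34 at Myom1. At the Ttn peak the rise was thus shared by the other miRNAs. The 3 were picked as the extremes of 23, and the intervals do not take that into account. The largest falls were at Hspb7 (a small heat shock protein of muscle) with 9.65 and 4.0 reads and a ratio of 0.415 (0.0916 to 1.39), mt-Rnr1 with 6.01 and 3.72 reads and a ratio of 0.619 (0.138 to 2.81), and Mat2a with 9.23 and 6.0 reads and a ratio of 0.650 (0.195 to 2.10). The intervals of the falls all held 1.

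miR-486b-5p usually shared its places with the other muscle miRNAs. Its Ago2 peaks held a median of 7 miRNAs in control muscle and 8 in mimic muscle, against 3 over all Ago2 peaks, and its median share of their reads was 5.79% and 5.03%. miR-133a-3p was listed at 64.0% and 65.5% of them, against 35.6% and 37.5% of all Ago2 peaks. miR-133b-3p was at 42.8% and 46.0% (17.0% and 16.3% of all), miR-1a-3p at 41.4% and 49.6% (26.3% and 29.0%), and miR-22-3p at 33.0% and 37.8% (9.94% and 10.7%). miR-206-3p was at 35.7% in control muscle and miR-378a-3p at 38% in mimic muscle. For miR-499-5p, miR-206-3p was listed at 10 of 13 control and 14 of 27 mimic peaks, and miR-1a-3p at 9 and 13. For miR-208b-3p, miR-1a-3p was listed at 6 of 6 control and 8 of 11 mimic peaks, and miR-206-3p at 6 and 4. Of all Ago2 peaks, 19.7% and 18.4% held miR-206-3p. The number of miRNAs in a peak moved with these shares, and its part in them was not tested. The values over all Ago2 peaks counted each Ago2 peak once. Crowded peaks therefore weighed less in them than among the peaks of single miRNAs. Counted as for the 7 and 8 of miR-486b-5p, the medians were 8.5 and 14 for miR-451a and 4 and 4 for miR-1a-3p. Neither the crowding nor the company is thus shown to be particular to miR-486b-5p.

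miR-486b-5p was the first miRNA by reads in 83 of its 619 control peaks, or 13.4% (10.8% to 16.3%), and in 108 of 850 mimic peaks, or 12.7% (10.5% to 15.1%), against 23.0% and 22.3% of the peaks of all miRNAs. Among its peaks of at least 3 reads it led 11 of 36 (30.6%) and 23 of 48 (47.9%), against 55.8% and 55.4% over all miRNAs. Several of these were places that few other miRNAs shared, named after their values were seen. At Trim44 (a TRIM family protein) it had 4.50 reads at chr2:102302903-102302977 in control muscle, where it was the only miRNA, and 4.76 in mimic muscle, with 74.4% of the reads. At Phtf2 it was the only miRNA in control muscle with 4.78 reads at chr5:20759025-20759065 and had 89.0% of the reads in mimic muscle with 6.71. At Abcc9, a subunit of the ATP-sensitive potassium channel, it had 4.46 reads with 83.8% of the place at chr6:142590338-142590433 in control muscle and 4.55 reads with 86.8% in mimic muscle. At Cisd2, an iron-sulfur protein of the endoplasmic reticulum and mitochondria, it had 9.29 reads with 82.3% of the place at chr3:135407735-135407827 in mimic muscle, and the overlapping control peak had 2.61 reads.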

How the data were processed

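Ago2 chimeric eCLIP-seq was measured in 1 control and 1 mimic library, and the inputs were not used. The authors deposited estimated counts, the chimeric reads of 1 miRNA in 1 peak, not scaled to depth. Per the methods, reads were trimmed, filtered for repeats, aligned with STAR, freed of PCR duplicates and called as peaks with CLIPper. The submitters' processing notes name UMI-tools 1.1.1, cutadapt 3.2, STAR 2.7.7a, Bowtie 1.2.3 and HOMER 4.11. Whether the comparison with input that the methods describe was applied to these lists, the origin of the fractions in the counts, and how a name was chosen among miRNAs alike in sequence, are not given in the sources used here.

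The methods name mm9 and the processing notes mm10. Past the mm9 chromosome ends lay 36 control and 35 mimic peaks, and 99.1% of the control peaks overlapped a RefSeq gene of GRCm38.p6 against 56.6% for mm9, so GRCm38 was used, with positions counted from 1. Of 49993 gene spans, the strand of 28096 came from RefSeq tables of GRCm38 and of 9309 by name from the mm9 annotation, and 12588 had none. The target gene was the one sharing most bases with the peak on its strand, or else a gene without strand. Exons and untranslated regions were not used here.

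With 1 library per group no test was run. Intervals are exact 95% intervals on rounded reads or on numbers of peaks (Clopper-Pearson for shares, Poisson for reads, conditional binomial for ratios, order statistics for medians). Those on reads cover counting error only and take the rounded estimates as counts. Those of shares of peaks and of medians treat peaks as independent, although several can lie in 1 gene. None covers variation between animals or preparations. Overlap meant at least 1 shared nucleotide on the same strand. The scripts (Python 3.11.15, pandas 2.3.3, scipy 1.17.1) were tested on simulated data.

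The members, gene lists and alternatives were chosen with earlier results of these data known. Named for each miRNA were the 10 genes with the most of its reads, its 5 highest peaks per library, the host genes, the genes of both field target lists (1 is not reported here), and the 3 largest rises and 3 largest falls among shared peaks of at least 3 reads. Named miRNAs were the other arms, miR-208a-3p, miR-451a and those listed most often in the same peaks. Further genes are named as examples of counts. The alternatives were minimum values of 1 and 3 reads, leaving out the mitochondrial chromosome and Rn18s-rs5, scaling to library totals, pooling of related names, stricter or looser overlap and other gene assignments.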

Additional observations from a re-analysis of the deposited data

How the results depend on the processing

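The numbers of peaks and genes depended most on the minimum value. At a minimum of 1 read, 2 control and 3 mimic peaks of miR-208b-3p remained, in as many genes, miR-499-5p had 3 and 7, in as many genes, and miR-486b-5p had 202 and 263, in 167 and 203 genes with 53 in common. At a minimum of 3 reads, miR-208b-3p and miR-499-5p had 0 peaks and 0 genes in both libraries, so their ratios could not be computed, and miR-486b-5p had 36 and 48 peaks in 27 and 37 genes with 19 in common. Asking for at least 2 peaks per gene left 0 and 1 genes of miR-208b-3p, 1 and 1 of miR-499-5p, and 82 and 114 of miR-486b-5p with 36 in common. Divided by library totals, the ratio of miR-486b-5p was 1.2. The interval of 1.21 to 1.47 belongs to the ratio before this division, so the 1.2 cannot be judged by it. The direction of all 3 ratios held under the alternatives run. The share of control peaks of miR-486b-5p overlapped was 69.4% when peaks of both libraries had to hold 3 reads, 26.0% with 50% reciprocal overlap, 23.5% counted from the mimic, and 70.4% with any miRNA accepted, which gave 83.3% for miR-208b-3p and 92.3% for miR-499-5p. The contractile share of miR-486b-5p was 38.7% (control) and 41.5% (mimic) at 3 reads. As a share of peaks it was 23.4% and 27.5%, against 12.7% and 14.1% over all miRNAs. For a minimum of 3 reads, no value over all miRNAs is given for this share or for the overlap. Without Tnnc2, an alternative added after seeing the data, the contractile share of reads was 21.2% and 27.6%, against 21% and 24.1% over all miRNAs. At 3 reads in both libraries, also chosen after seeing the data, 4 of 23 shared peaks were at least 2-fold higher and 1 at least 2-fold lower. The shares over all miRNAs at this minimum are not given, so these counts have no background. Pooling with miR-486a-5p or miR-208a-3p added nothing, since these had 0 peaks. Seed matches in nuclear genes were not run. No paired analysis was possible because neither condition was sequenced more than once. The precision of most peaks is low, since 67.4% of the control peaks of miR-486b-5p held under 1 read, against 55.5% over all miRNAs.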
